A study of Mus musculus with 12 samples.

Results

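The guanylate-binding protein (Gbp) genes of the mouse were examined in liver RNA-seq data from 12 animals. The 10 genes Gbp2 to Gbp11 were found by their symbols through Ensembl transcript identifiers, out of 31114 genes that could be joined, and all 10 had reads. They were chosen by their read counts in these same livers, which earlier results showed to be higher after Upf3b depletion, so the Upf3b-ASO contrasts below describe the genes and do not test them. For expression tests, 7 of the 10 passed a filter of at least 5 TPM, a length-corrected abundance, in at least 4 livers. Gbp4, Gbp5 and Gbp8 did not. Gbp9 reached 5 TPM in 6 livers, among them all 4 Upf3b-ASO livers, so it passed only through that group.

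All animals were hFIX-R29X mice, a hemophilia B model without mouse factor IX whose hepatocytes express, from the human transthyretin promoter, a human FIX minigene interrupted by a nonsense mutation. An antisense oligonucleotide (ASO) coupled to GalNAc, a sugar that directs it to hepatocytes, was given by injection. Each group held 4 animals, 2 females and 2 males aged 8 to 14 weeks, dosed 6 times at intervals of 5 days, with livers taken 48 h after the last dose. One group received the vehicle DPBS. The control ASO, of scrambled sequence, was dosed at 15 mg/kg and the ASO targeting Upf3b at 10 mg/kg. The Upf3b-ASO therefore differed from its control in dose as well as in sequence. Replicates 1 and 2 of each group were female, and replicates 3 and 4 were male. Each animal gave 1 liver sample, and whole liver was measured, so that fewer cells of a type and less RNA per cell cannot be told apart.

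Guanylate-binding proteins are large GTPases of the dynamin superfamily that are barely made in resting cells and are strongly induced by interferon gamma and, more weakly, by type I interferons. They assemble on the vacuoles of intracellular parasites and on cytosolic bacteria, where they help to disrupt the pathogen's membrane and to activate inflammasomes. In the mouse they lie in a pair of clusters on chromosomes 3 and 5. Upf3b is an accessory factor of nonsense-mediated RNA decay (NMD), the pathway that removes mRNAs with premature stop codons.

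Of the 10 genes, 4 lie on chromosome 3 (Gbp5, Gbp7, Gbp3 and Gbp2, in genome order) and 6 on chromosome 5 (Gbp8, Gbp9, Gbp4, Gbp10, Gbp6 and Gbp11), in the GRCm38 build. Promoters from RefSeq (GRCm38.p6, a fixed window around each gene's start) were found for 4 of the 10, all on chromosome 3. These were searched on both strands for the interferon-stimulated response element (ISRE) as TTTC, any 2 bases, then TTTC, and for the gamma-activated site (GAS) as TTCNNNGAA. The stretch around the ISRE letters is shown for each because it is the feature these promoters share, with ISRE and GAS letters in capitals:
Gbp5, chr3:142496734-142496813, + strand: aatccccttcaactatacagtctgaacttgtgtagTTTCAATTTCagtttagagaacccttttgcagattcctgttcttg
Gbp7, chr3:142530248-142530327, + strand: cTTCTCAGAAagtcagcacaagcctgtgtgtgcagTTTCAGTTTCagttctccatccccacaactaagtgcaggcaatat
Gbp3, chr3:142559967-142560046, + strand: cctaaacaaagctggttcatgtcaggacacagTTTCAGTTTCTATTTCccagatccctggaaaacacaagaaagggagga
Gbp2, chr3:142620569-142620648, + strand: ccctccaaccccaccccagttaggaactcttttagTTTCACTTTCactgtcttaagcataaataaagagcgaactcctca
In each the letters TTTC recur with a 2-base spacer, and in Gbp3 another copy makes 2 overlapping matches. The first ISRE base lay at -165 from the start in Gbp5, -53 in Gbp7, -45 and -39 in Gbp3 and -59 in Gbp2. GAS letters occurred 2 times each in the Gbp5 and Gbp7 promoters and in neither Gbp2 nor Gbp3. Of 32851 promoters of the same length, 3.4% held the ISRE letters and 8.3% the GAS letters. A second Gbp3 promoter in the table held neither motif.

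The Upf3b-ASO and its target are shown because they define the treatment. The 16 bases of the ASO, 5′ to 3′, and the site they complement in Upf3b-201, at chrX:37091973-37091988 on the - strand (GRCm38, exon 10, 3′ UTR), were:
Upf3b-ASO: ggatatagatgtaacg
Upf3b site: cgttacatctatatcc
Across the transcripts of the 10 Gbp genes, the longest run complementary to the ASO ranged from 5 to 9 bases.

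Upf3b itself fell in the livers labelled Upf3b-ASO. Its level, in TMM-scaled CPM (a gene's counts per 1000000 counts of the library), was 10.4, 9.37, 13.5 and 10.9 in DPBS replicates 1 to 4, 8.60, 9.55, 7.93 and 12 with control ASO, and 1.58, 0.65, 0.996 and 0.674 with Upf3b-ASO. All 4 Upf3b-ASO livers lay below the other 8. The log2 fold change was -3.30 ± 0.27 (SE) against control ASO (edgeR adjusted p = 7.4e-05) and -3.51 ± 0.27 against DPBS (edgeR adjusted p = 3.2e-05).

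Joined counts, in units of 1000000, were 17.32 to 20.19 in the DPBS and control ASO livers and 13.11 to 16.87 in the Upf3b-ASO livers. Control ASO replicate 3, a male liver, stood apart with a TMM scaling factor of 0.775, against 0.953 to 1.117 in the other 11, and values with and without it are given where it matters. It carried the lowest Gbp sum of all livers and the highest sum of cholangiocyte markers, at 39.0 CPM. Summed hepatocyte markers were 66800 to 114000 CPM, so the tissue matched its label, and 7 of the 8 listed markers were in the files.

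As a family, the Gbp genes were about 2.2 times higher after Upf3b-ASO. The summed CPM of the 10 genes was 123, 211, 97.2 and 104 in DPBS replicates 1 to 4, 149, 178, 83.9 and 128 with control ASO, and 349, 288, 246 and 279 with Upf3b-ASO. No Upf3b-ASO liver overlapped either control group. The log2 difference was 1.15 ± 0.25 (SE, 2.22-fold, 4 livers a group) against control ASO and 1.18 ± 0.27 (2.26-fold) against DPBS, whereas control ASO and DPBS differed by 0.03 ± 0.34. Without control ASO replicate 3 the difference from control ASO was 0.94. The sum does not depend on how reads shared between the 10 paralogs were split among them.

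In the tests over 8846 genes, 4.34% were past the threshold (edgeR adjusted p below 0.05) and higher with Upf3b-ASO than with control ASO, with 5.95% lower, and 3.57% were higher and 5.36% lower than with DPBS. Groups of 4 did not overlap for 7.75% of genes higher and 7.7% lower against control ASO, and for 10.4% and 12.1% against DPBS. Of the 7 filtered Gbp genes, Gbp3, Gbp6, Gbp9 and Gbp10 were past the threshold in both comparisons, which share the Upf3b-ASO livers. Gbp6, Gbp9 and Gbp10 did not overlap in either. As these contrasts chose the genes, nothing is read from those counts.

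**Figure D1:**
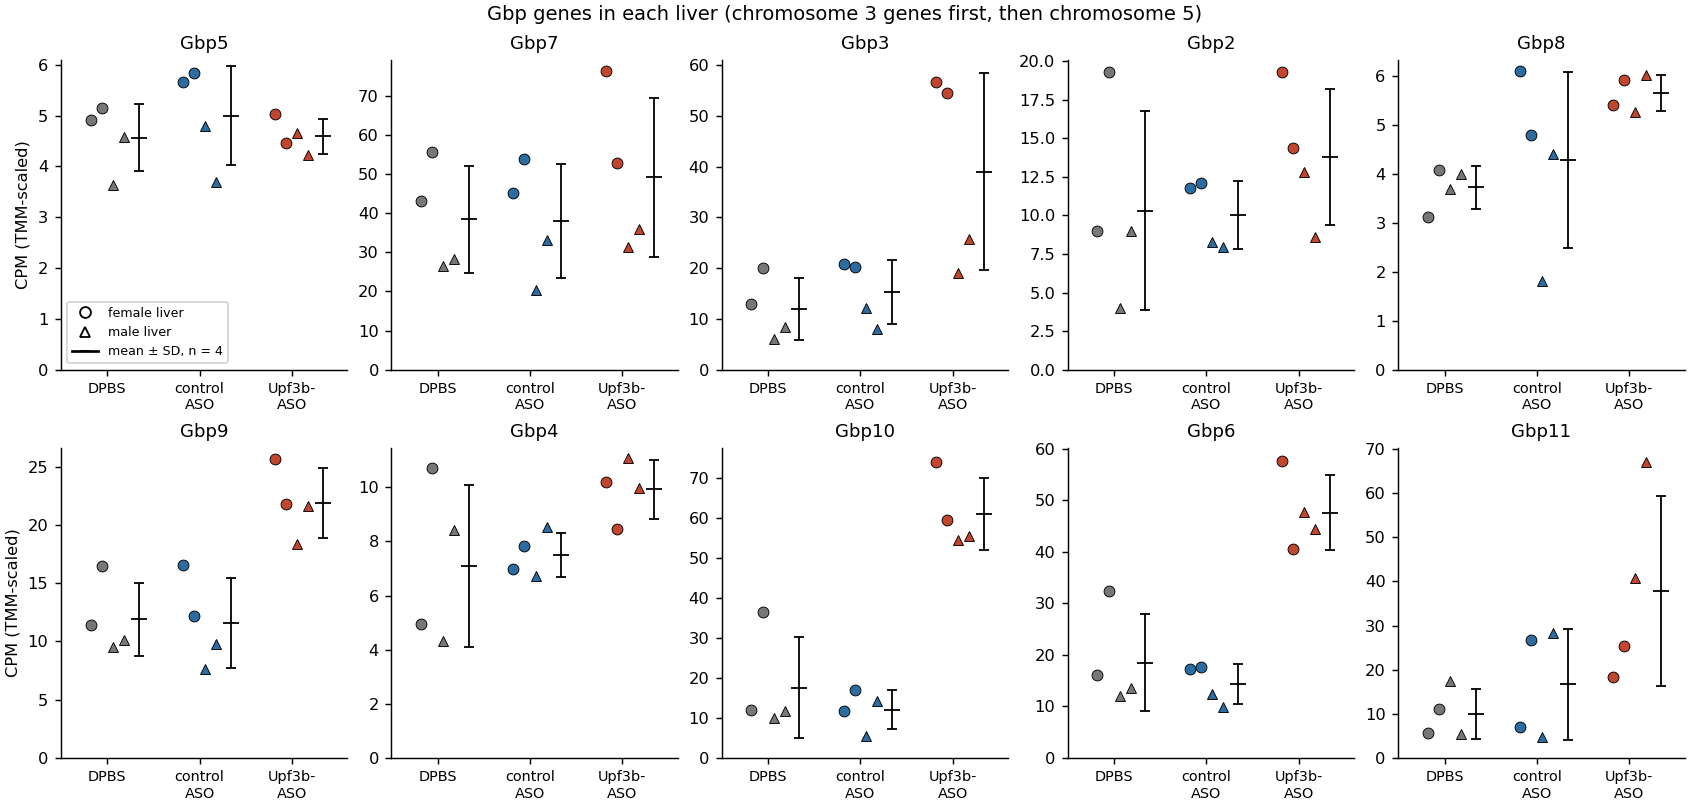
Level of each Gbp gene in each liver, in TMM-scaled CPM on a linear axis from 0, by group; circles are female and triangles male livers, and bars give the mean ± SD of 4. The 4 Upf3b-ASO livers lie above both control groups for Gbp6, Gbp9 and Gbp10, whereas Gbp3 and Gbp7 split by sex.

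The chromosome 5 genes had the larger fold. Their sum was 53.2, 111, 56.9 and 53.3 CPM with DPBS, 65.7, 86.3, 38.4 and 75.0 with control ASO, and 191, 162, 178 and 205 with Upf3b-ASO. Every Upf3b-ASO liver was above every control liver, by 1.53 ± 0.27 on the log2 scale (2.88-fold) against control ASO and 1.49 ± 0.27 (2.82-fold) against DPBS. For the chromosome 3 genes the groups overlapped, with differences of 0.61 ± 0.38 and 0.70 ± 0.41, errors that include the spread between the sexes. Within females, at 158 and 126 CPM against 70.1 to 100, and within males, at 67.9 and 74.5 against 40.4 to 52.8, both Upf3b-ASO livers were above all 4 controls. This order within each sex was not counted over all genes, so nothing is read from it.

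Gbp10 (ENSMUSG00000105096, chr5:105215699-105239533, - strand), a GTPase with a role in defence against intracellular bacteria, showed the largest fold of the 10 genes against control ASO. Its CPM was 12, 36.4, 9.94 and 11.8 with DPBS, 11.8, 16.9, 5.37 and 14.1 with control ASO, and 74.0, 59.5, 54.6 and 55.5 with Upf3b-ASO. The highest control liver, DPBS replicate 2, stayed below the lowest Upf3b-ASO liver. The log2 fold change was 2.36 ± 0.38 against control ASO and 1.88 ± 0.37 against DPBS.

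Gbp6 (ENSMUSG00000104713, chr5:105270702-105293698, - strand), its neighbour and near copy, followed the same order. It was at 16.1, 32.4, 11.9 and 13.5 CPM with DPBS, 17.3, 17.7, 12.3 and 9.87 with control ASO, and 57.7, 40.6, 47.7 and 44.5 with Upf3b-ASO. The groups did not overlap here either, and the log2 fold changes were 1.79 ± 0.24 and 1.44 ± 0.24 against control ASO and DPBS.

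Gbp6 and Gbp10 cannot be fully separated by sequence. Of the 31-base words in Gbp10 transcripts, 80.8% also occur in Gbp6 and only 10.2% are found in no other gene; for Gbp6 the unique share is 25.8%. Another annotated gene, Gm43302, spans both loci (chr5:105214907-105293695), shares exon bases with each, and has no 31-base word of its own. Reads of the 3 genes were therefore also summed: 28.1, 79.8, 23.5 and 26.2 CPM with DPBS, 29.2, 39.4, 17.6 and 31.9 with control ASO, and 151, 110, 109 and 110 with Upf3b-ASO. The summed locus was 2.07 ± 0.27 higher on the log2 scale (4.19-fold) than with control ASO and 1.79 ± 0.43 (3.47-fold) higher than with DPBS, again without overlap. In a fit with the 3 genes merged, a choice made after the data were seen, the log2 fold changes were 2.05 ± 0.33 and 1.69 ± 0.32. Gm43302 alone ranged from 0 to 11 CPM in the 8 control livers and from 6.55 to 19.8 with Upf3b-ASO, and its split from Gbp6 and Gbp10 rests on the authors' read assignment.

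**Figure D2:**
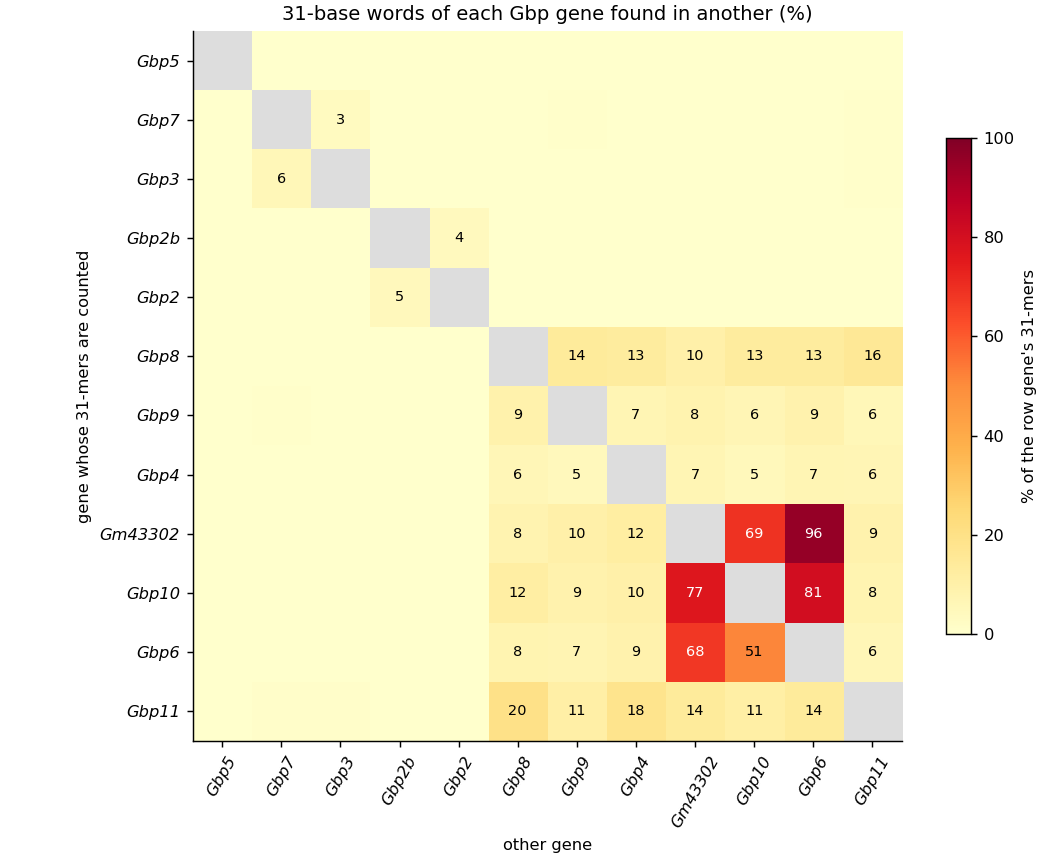
Share of each gene's 31-base transcript words (rows) that also occur in another Gbp gene (columns), in percent, for the 10 genes with Gbp2b and Gm43302. The chromosome 5 genes share words among themselves, most of all Gbp10, Gbp6 and Gm43302, while the chromosome 3 genes share at most 5.5% with any other.

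Gbp9 (ENSMUSG00000029298, chr5:105077630-105139539, - strand), with 81.7% of its words unique, rose by less. Its CPM was 11.4, 16.5, 9.53 and 10.1 with DPBS, 16.6, 12.2, 7.62 and 9.81 with control ASO, and 25.7, 21.8, 18.4 and 21.6 with Upf3b-ASO. No liver overlapped between Upf3b-ASO and either control. Log2 fold changes were 0.95 ± 0.16 and 0.90 ± 0.16, the narrowest errors of the 7 filtered genes.

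Gbp11 (ENSMUSG00000092021, chr5:105323042-105346472, - strand) is annotated as a polymorphic pseudogene, a locus that is intact in some strains and disrupted in the reference. It varied widely within each group. It was at 5.68, 11.1, 17.5 and 5.34 CPM with DPBS, 6.88, 26.8, 4.63 and 28.2 with control ASO, and 18.4, 25.4, 40.8 and 67.1 with Upf3b-ASO. Upf3b-ASO livers lay above all DPBS livers but overlapped the control ASO livers, and the log2 fold changes were 1.86 ± 0.62 and 1.06 ± 0.61, neither past the threshold. Without control ASO replicate 3 they were 1.85 ± 0.45, past the threshold, and 0.67 ± 0.47.

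Gbp4, a regulator of IRF7 signalling, and Gbp8 stayed below the filter. Gbp4 ranged from 4.31 to 10.7 CPM in the control livers and from 8.45 to 11.1 with Upf3b-ASO, so the groups overlapped. Gbp8 ranged from 3.13 to 4.09 with DPBS, 1.82 to 6.12 with control ASO and 5.28 to 6.02 with Upf3b-ASO, above DPBS without overlap but within the control ASO range. In a fit without the filter their log2 fold changes against control ASO were 0.44 ± 0.24 and 0.45 ± 0.26, neither past the threshold.

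On chromosome 3, Gbp3 (ENSMUSG00000028268, chr3:142560026-142573209, + strand), an antimicrobial GTPase of the cluster, was the member with the largest fold. Its CPM was 13, 20.1, 6.11 and 8.48 with DPBS, 20.9, 20.3, 12.1 and 8.04 with control ASO, and 56.7, 54.4, 19.0 and 25.7 with Upf3b-ASO. The groups overlapped across the sexes, whereas within females and within males both Upf3b-ASO livers were above all 4 control livers of that sex. How many of all genes had such an order within each sex was not counted, so nothing is read from it. The log2 fold change was 1.30 ± 0.18 against control ASO and 1.68 ± 0.18 against DPBS.

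Gbp7 (ENSMUSG00000040253, chr3:142530342-142550149, + strand), which helps target autophagy proteins and NADPH oxidase to bacteria, had the most Gbp counts in the control groups but a small fold. It was at 43.2, 55.8, 26.6 and 28.3 CPM with DPBS, 45.2, 53.8, 20.3 and 33.1 with control ASO, and 76.4, 52.8, 31.5 and 36.0 with Upf3b-ASO. The groups overlapped, and the log2 fold changes were 0.36 ± 0.17 and 0.34 ± 0.17, neither past the threshold.

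Gbp2 (ENSMUSG00000028270, chr3:142620602-142638008, + strand), which is prenylated and restricts Toxoplasma at its vacuole, gave 0.44 ± 0.29 and 0.47 ± 0.29. Its CPM was 9.0, 19.3, 3.97 and 8.99 with DPBS, 11.8, 12.1, 8.29 and 7.93 with control ASO, and 19.3, 14.4, 12.8 and 8.61 with Upf3b-ASO, with overlap. Gbp5, an activator of the NLRP3 inflammasome, was the flattest member. It ranged from 3.64 to 5.83 CPM in the control livers and from 4.22 to 5.03 with Upf3b-ASO, and without the filter its log2 fold change against control ASO was -0.07 ± 0.18.

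**Figure D3:**
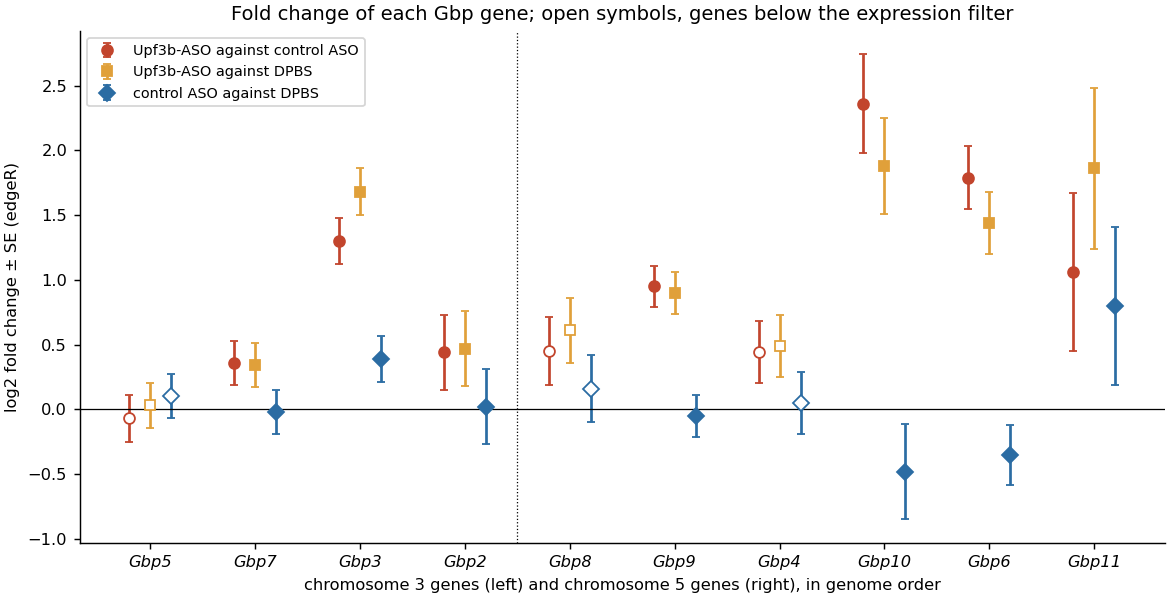
Log2 fold change ± SE of each Gbp gene from edgeR in 3 comparisons, in genome order with chromosome 3 to the left of the dotted line; open symbols mark Gbp4, Gbp5 and Gbp8, fitted without the expression filter. Gbp10 is highest against both controls, Gbp11 has the widest errors, and control ASO against DPBS ranges from -0.48 for Gbp10 to 0.80 for Gbp11.

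Levels could be set against each other only per length. In CPM per kilobase, the DPBS livers had Gbp7 at 8.48 ± 3.18 (SD, n = 4), Gbp6 at 6.39 ± 3.57, Gbp3 at 6.2 ± 2.83, Gbp10 at 6.14 ± 3.89, Gbp2 at 4.54 ± 2.67 and Gbp11 at 3.98 ± 2.29. Below these were Gbp9 at 3.41 ± 0.868, Gbp4 at 2.56 ± 0.684, Gbp8 at 1.66 ± 0.218 and Gbp5 at 1.37 ± 0.242. The livers' values of each neighbouring pair in this order overlapped. With Upf3b-ASO the order was led by Gbp10 at 20.2 ± 2.50, Gbp3 at 18.7 ± 9.36, Gbp6 at 16.4 ± 3.18, Gbp11 at 15.3 ± 8.57 and Gbp7 at 10.6 ± 4.82. Gbp10 made up 21.0 ± 0.989% (SD, n = 4) of the family's counts with Upf3b-ASO against 8.72 ± 2.02% with control ASO and 12.2 ± 3.45% with DPBS, and Gbp7 16.5 ± 4.45% against 27.6 ± 3.07% and 29.0 ± 4.0%.

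Because the knocked-down gene acts in NMD, transcripts annotated with an NMD biotype were examined across the 37 transcripts of the 10 genes. Gbp6-203 is such a transcript. It carried 5.71, 7.48, 4.13 and 5.26 CPM with DPBS, 5.84, 4.23, 3.97 and 0.000359 with control ASO, and 10.6, 11.6, 21.2 and 15.4 with Upf3b-ASO. Its level was thus higher in all 4 Upf3b-ASO livers, but its share of Gbp6 counts was 31.5 ± 10.9% (SD, n = 4) with Upf3b-ASO, 22.5 ± 15.6% with control ASO and 33.0 ± 6.87% with DPBS, with overlapping livers. The protein-coding Gbp6-201 was also higher, at 19.6 to 40.5 CPM against 4.13 to 10.3 with control ASO and 5.12 to 21.4 with DPBS. Only 4.9% of the 31-base words of Gbp6-203 and 5.6% of those of Gbp6-201 occur in no other gene. Their levels and shares therefore also rest on how reads were divided between genes.

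Transcripts of the NMD biotype made up most of the estimated counts of Gbp4 and Gbp5 in every group. For Gbp5 the share was 92.4 ± 4.21% with DPBS, 88.4 ± 7.82% with control ASO and 88.7 ± 4.84% with Upf3b-ASO. For Gbp4 it was 72.6 ± 12.3%, 70 ± 2.45% and 67.4 ± 20.6%. In TPM, which corrects for length, the NMD transcript Gbp4-202 made up less of the gene, at 46.3, 39.7 and 45.3% by group mean. These 2 genes, of which Gbp5 was the flattest, did not shift towards the NMD biotype beyond the spread between livers. Gbp10 counts came almost wholly from the protein-coding Gbp10-201 (93.8 to 98.1% of the gene's counts by group mean), and Gbp11 counts from Gbp11-201. In TPM the share of Gbp10-201 was lower, at 82.2% with DPBS, 72.9% with control ASO and 88.6% with Upf3b-ASO. The rest was the short retained-intron transcript Gbp10-202, at 17.8, 27.1 and 11.4%. Gbp3, Gbp7, Gbp8, Gbp9, Gbp10 and Gbp11 have no transcript of the NMD biotype in the annotation used. Assignment of reads to transcripts of 1 gene, and between genes that share sequence, is an estimate of the Salmon model.

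Control ASO was compared with DPBS to see whether an ASO of scrambled sequence moved the Gbp genes. None of the 7 filtered Gbp genes was past the threshold with edgeR (adjusted p from 0.64 to 0.97) or at an unadjusted p of 0.05, and DESeq2 and limma also called none; over all genes, 0.0113% were called lower and none higher. All 7 genes overlapped between the groups, as against 1.29% and 1.66% of genes that lay wholly higher or lower. The largest differences were 0.80 ± 0.61 for Gbp11, -0.48 ± 0.37 for Gbp10 and 0.39 ± 0.18 for Gbp3 on the log2 scale. Without control ASO replicate 3, Gbp11 was at 1.18 ± 0.48 (edgeR unadjusted p = 0.033, adjusted p = 0.44). For Gbp10 the difference rested on DPBS replicate 2 and was 0.02 without it.

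Sex was not used to choose the genes, and several Gbp genes were lower in males. Over all genes tested, 5.73% were called lower and 4.3% higher in males. Of the 7 filtered Gbp genes, Gbp3, Gbp7 and Gbp9 were called lower and none higher. The log2 difference, male against female with 6 livers each, was -1.18 ± 0.15 for Gbp3 (edgeR adjusted p = 0.00046), -0.89 ± 0.14 for Gbp7 (edgeR adjusted p = 0.0019) and -0.48 ± 0.13 for Gbp9 (edgeR adjusted p = 0.045). In each of the 3 groups both males lay below both females for all 3 genes. The share of all genes with such an order was not counted, so nothing is read from it. The Gbp9 call was lost in most of the alternatives, with adjusted p up to 0.44.

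Gbp2 was -0.78 ± 0.24 (edgeR adjusted p = 0.066). Both males were again below both females in every group, but in DPBS only by 8.99 against 9.0 CPM at the closest. Gbp6, Gbp10 and Gbp11 were at -0.55 ± 0.19, -0.65 ± 0.30 and 0.58 ± 0.50 without a call. Gbp11 was thus the only filtered member with a positive value. The chromosome 3 sum was 40.4 and 50.4 CPM in DPBS males against 70.1 and 100 in DPBS females, 45.5 and 52.8 against 83.7 and 92.0 with control ASO, and 67.9 and 74.5 against 158 and 126 with Upf3b-ASO. Males were lower in every group. Its log2 difference was -0.91 ± 0.11 (0.53-fold), and that of the chromosome 5 sum -0.28 ± 0.24. On the deposited TPM scale the median of all genes was itself shifted by -0.29 in males, and limma then called 141 genes higher and 2921 lower in place of 380 and 507 with edgeR. On that scale 6 Gbp genes were called lower, and their values are to be read against that shift.

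**Figure D4:**
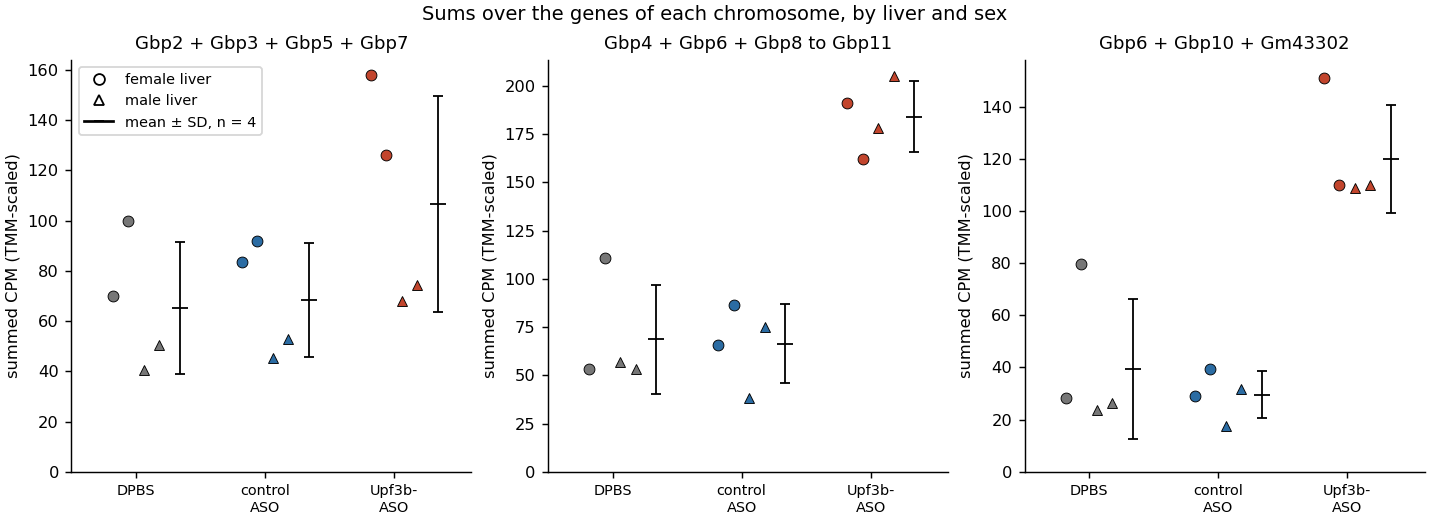
Summed TMM-scaled CPM of the 4 chromosome 3 genes, the 6 chromosome 5 genes, and Gbp6 with Gbp10 and Gm43302, in each liver by group, on linear axes from 0; circles are females, triangles males, and bars mean ± SD of 4. Both males lie below both females in each group for the chromosome 3 sum, whereas the chromosome 5 sum sets Upf3b-ASO apart in both sexes.

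Whether the Upf3b-ASO difference itself depended on sex was tested by an interaction term. No Gbp gene passed the threshold with edgeR, DESeq2 or limma, none had an unadjusted p below 0.05, and none of the 8846 genes was called, with 647 at an unadjusted p below 0.05 by edgeR. Without control ASO replicate 4, which leaves replicate 3 as the only control ASO male, 1958 genes were called positive and 1912 negative, but again no Gbp gene. The interaction was -0.28 ± 0.38 for Gbp3 and 0.27 ± 0.74 for Gbp10, and the widest was 1.33 ± 1.24 for Gbp11. In simulated data of this design 10.8% of interactions of 1 log2 unit were recovered, so differences of that size between the sexes were not detectable.

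Other interferon genes were examined by lists of pathway members, chosen with earlier results of these data known. The filter of 4 livers equals the size of 1 group. A listed gene low in both control groups could therefore pass it through the Upf3b-ASO livers alone. The immunity-related GTPases, a second family that acts on parasite vacuoles together with Gbp proteins, rose in part: 5 of 9 tested were higher with Upf3b-ASO than with control ASO and none lower, with a median log2 fold change of 0.60 against -0.02 over all genes. The 4 with the largest change were Tgtp1 at 1.57 ± 0.43 (edgeR adjusted p = 0.045), Ifi47 at 1.36 ± 0.20 (edgeR adjusted p = 0.0019), Igtp at 1.01 ± 0.20 (edgeR adjusted p = 0.011) and Irgm2 at 0.75 ± 0.13 (edgeR adjusted p = 0.0064). Against DPBS 3 of 9 were called with edgeR, 5 with DESeq2, 2 with limma and 6 without control ASO replicate 3. Over all genes the number called higher against DPBS went from 316 to 553 with DESeq2, to 128 with limma and to 1214 without that liver. Tgtp1 was not called against DPBS with edgeR, at 1.02 ± 0.42 (edgeR adjusted p = 0.17), with DPBS replicate 2 at 18.7 CPM. Among other dynamin-like interferon GTPases, 1 of 2 tested rose, the very large GTPase Gvin1, at 1.18 ± 0.26 against control ASO (edgeR adjusted p = 0.017).

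Type I interferon-stimulated genes were called higher in 9 of 25 tested and lower in none, with a median of 0.44. DESeq2 called 10 higher and limma 6. Their leading members were Ifi44 at 1.96 ± 0.26 (edgeR adjusted p = 0.0011), Cmpk2, a nucleotide kinase, at 1.19 ± 0.33 (edgeR adjusted p = 0.047), Oasl2, a 2′-5′-oligoadenylate synthetase-like protein, at 0.92 ± 0.24 (edgeR adjusted p = 0.037) and Ifi27 at 0.81 ± 0.12 (edgeR adjusted p = 0.0024). Ifi44 was at 1.95 to 6.91 CPM in DPBS, 3.51 to 9.57 in control ASO and 12.2 to 33.2 in Upf3b-ASO livers, without overlap. Against DPBS 14 of 25 were called higher with edgeR, 18 with DESeq2 and 10 with limma. Control ASO against DPBS gave these 25 genes a median of 0.30, against 0.01 over all genes, with 21 above 0. None of the 25 was called there. By edgeR 7 were higher and none lower at an unadjusted p below 0.05, as against 617 of all 8846 genes in either direction. That count of 7 was 9 with DESeq2, 3 with limma and 1 without control ASO replicate 3. Without control ASO replicate 3, 17 of 25 were called against control ASO, as the number called higher over all genes also went from 384 to 976.

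Class I antigen processing genes were called higher in 6 of 20 with edgeR (median 0.28), in 2 with limma and in 11 without control ASO replicate 3. Against DPBS the count was 6, and 14 without that liver, as the number called higher over all genes also went from 316 to 1214. Those called against control ASO included the immunoproteasome subunit Psmb9 at 0.97 ± 0.22 (edgeR adjusted p = 0.02), the peptide transporter Tap1 at 0.76 ± 0.15 (edgeR adjusted p = 0.0093), the class I molecule H2-T22 at 0.62 ± 0.08 (edgeR adjusted p = 0.00087) and the chaperone Calr at 0.45 ± 0.12 (edgeR adjusted p = 0.045). Calr was not called against DPBS, at -0.04 ± 0.12. Between control ASO and DPBS edgeR called none of the 20 class I genes (median 0.10), with 5 higher and 1 lower at an unadjusted p below 0.05. No class II gene of 4 tested was called by edgeR, DESeq2 or limma, and none had an unadjusted p below 0.05.

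**Figure D5:**
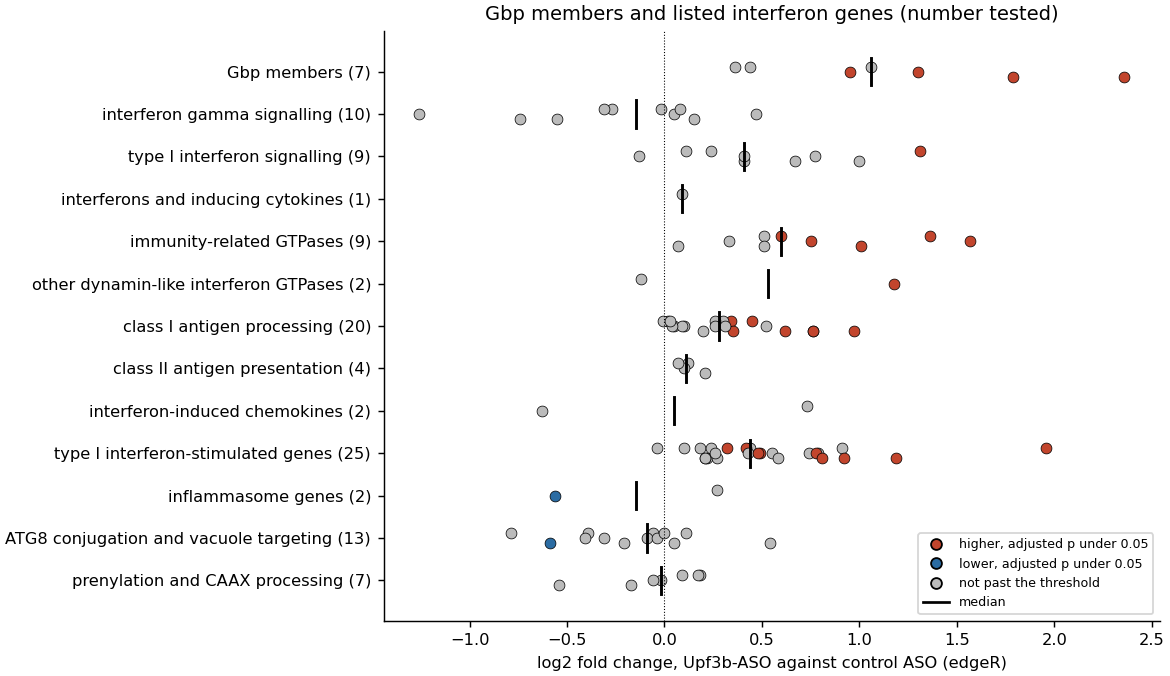
Log2 fold change of Upf3b-ASO against control ASO (edgeR) for each tested gene of the Gbp family and of the interferon lists, with the number tested beside each name; red and blue points passed an adjusted p of 0.05, and vertical bars are medians. Among the lists, genes called higher lie in the GTPase, type I and class I ones. The ATG8 and inflammasome lists each hold 1 gene called lower, and the interferon gamma signalling list holds none called.

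Genes that carry the signal were also listed. Of 9 type I signalling genes (median 0.41), 1 was called higher against control ASO with edgeR, 3 with DESeq2, 2 with limma and 4 without control ASO replicate 3, and 4 were called higher against DPBS. The 1 called with edgeR was the transcription factor Irf7, at 1.31 ± 0.17 (edgeR adjusted p = 0.0011), with 22.6 to 33.3 CPM in DPBS, 26.0 to 46.2 in control ASO and 66.4 to 89.9 in Upf3b-ASO livers. None of 10 interferon gamma signalling genes was called with edgeR or limma (median -0.15); 1 was higher and 1 lower at an unadjusted p below 0.05, DESeq2 called 1 in each direction, and without control ASO replicate 3 edgeR called 2 higher and 1 lower. Irf1, named here after its value was seen because it is an activator of Gbp transcription, was at 0.15 ± 0.24 (edgeR adjusted p = 0.71). Of 11 interferons and inducing cytokines only Il18 passed the expression filter. Ifng was at most 0.1 CPM and Ifnb1 at most 0.432 CPM in any liver. No difference in either was detectable at this depth.

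Gbp proteins act through partners that were also listed. Of 13 genes of ATG8 conjugation and vacuole targeting, 1 was lower, the ATG8 protein gene Map1lc3a at -0.59 ± 0.13 (edgeR adjusted p = 0.017), and none higher. DESeq2 called 1 in each direction, limma none, and edgeR 3 lower without control ASO replicate 3. Over all genes 5.95% were called lower, so nothing is read from this count. Of 2 inflammasome genes tested, Nek7, a kinase of the NLRP3 inflammasome, was lower at -0.56 ± 0.16 (edgeR adjusted p = 0.046), but control ASO replicate 3 was high at 137 CPM and the difference from DPBS was -0.41 ± 0.16 (edgeR adjusted p = 0.14). Limma called neither of the 2 against control ASO, whereas DESeq2 called 1 lower. None of the 7 prenylation genes and neither of the 2 interferon-induced chemokines was called by edgeR, DESeq2 or limma, and none had an unadjusted p below 0.05.

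Markers of other liver cell types, among them the immune cells that also make Gbp proteins, were set beside the family. Kupffer cell markers summed to 361 to 544 CPM with DPBS, 380 to 914 with control ASO and 471 to 643 with Upf3b-ASO, and T and NK cell markers to 6.18 to 10.2, 6.02 to 10.0 and 7.58 to 9.78. For all 10 marker lists the Upf3b-ASO livers overlapped both control groups, but some control ASO ranges were wide. Cholangiocyte markers summed to 39.0 CPM in control ASO replicate 3, against 4.08 to 5.86 with DPBS and 3.29 to 5.61 with Upf3b-ASO. Erythroid markers reached 3010 CPM with control ASO, in a liver other than replicate 3, against at most 385 with DPBS and 549 with Upf3b-ASO. None of the 9 tested Kupffer cell markers was called against either control by edgeR, DESeq2 or limma; at an unadjusted p below 0.05 there was none against control ASO (median -0.09) and 1 higher against DPBS (median 0.21). Against control ASO the stellate cell markers had a median of -0.30, with 1 of 6 called lower by edgeR, 3 by DESeq2 and none by limma; the 1 was Rgs5, at -0.78 ± 0.16 (edgeR adjusted p = 0.013). The hepatocyte markers had a median of -0.37, with none of 7 called by edgeR or limma, 4 lower at an unadjusted p below 0.05 by edgeR, and 3 called lower by DESeq2. Without control ASO replicate 3, edgeR called 2 of 8 endothelial markers lower against control ASO, and none with it. The part of these cell types in the Gbp difference was not tested.

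Likeness to the family was measured by Pearson's r between log2 CPM of each gene and the log2 family sum over the 12 livers, which share groups and sexes. The 10 highest outside the family were Ccng1 (cyclin G1, r = 0.96), Dtx3l and Parp12 (an interferon-induced ubiquitin ligase and an ADP-ribosyltransferase, both 0.95), Lyplal1 (0.94), and H2-T22, Thyn1, Sept2, Pold4, Msrb2 and Iigp1 (all 0.93). Ccng1 kept 0.93 without the 2 livers farthest from the median. After group means were removed, only differences between livers of a group counted, and these include the difference between the sexes. The highest by that measure included BC023105 (0.95), Tst (0.91), and Galk2 and Iigp1 (both 0.90). Iigp1, an immunity-related GTPase, was the gene in both lists.

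Among the members, deviations from the group means on the log2 scale showed that DPBS replicate 2 was above its group for all 10 genes, by 1.24 for Gbp10, 1.06 for Gbp2, 0.90 for Gbp6 and 0.86 for Gbp3. Control ASO replicate 3 was below its group for all 10, by -1.36 for Gbp11 and -0.99 for Gbp10. Gbp11 departed from the others, since DPBS replicate 3 was 0.95 above its group for Gbp11 and 1.08 below it for Gbp2.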

How the data were processed

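The deposited files give, for each of 12 livers, estimated counts and TPM per Ensembl transcript. The authors made these estimated counts and TPM values with Salmon 0.7.2 on GRCm38.p4, per the labels and the study's methods, after bcl2fastq 2.17.1.14. Transcripts were joined to genes by identifier (98.1% of 92468, holding 97.51 to 99.26% of counts) and summed. The 31114 genes were filtered to 8846 with at least 5 TPM in at least 4 livers. Gene sums were rounded to whole numbers and fitted with edgeR 4.0.16 (quasi-likelihood, TMM, group and sex terms, all 12 livers in 1 fit, Benjamini-Hochberg over all genes tested). Sums over genes carry no p-value.

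The genes and lists were chosen with earlier results of these data known. Named list genes are up to 4 called per list by size of change; genes alike in pattern are the 10 highest by r and 5 by deviations (0.5 CPM added before logs), of which 1 is not reported here. Alternatives used DESeq2 1.42.0, limma 3.58.1 on log2(TPM + 1) or log2(TPM + 0.1), other filters and offsets, a replicate block, and each liver left out. Livers in the Upf1-ASO arm of the study were not analysed here. Tested on simulated data, edgeR recovered 88.3% of changes of 1 log2 unit in Upf3b-ASO against control ASO (8846 genes). No same-group libraries agreed within sampling noise.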

Additional observations from a re-analysis of the deposited data

Results flagged for a closer look

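In groups of 4 livers, 93 sets of values were searched for a sample standing apart by Dixon's test at the 95% level, which marks about 1 in 20 groups by chance, and 6 did. DPBS replicate 2 had 36.4 CPM of Gbp10, where the other livers given DPBS had 9.94 to 12. The same liver stood apart in the chromosome 5 sum, at 111 CPM against 53.2 to 56.9, and in the sum of Gbp6, Gbp10 and Gm43302, at 79.8 CPM against 23.5 to 28.1. It also did for the immunity-related GTPase gene Tgtp1, at 18.7 CPM against 4.0 to 5.33. The sum of Gbp6, Gbp10 and Gm43302 was 151 CPM in Upf3b-ASO replicate 1, against 109 to 110 in the others. Nek7 was at 137 CPM in control ASO replicate 3, against 74.8 to 81. The first 4 values come from 1 female liver, and the sums contain Gbp10, so they are not independent of each other.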

How the results depend on the processing

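Gbp3, Gbp6, Gbp9 and Gbp10 were called higher against control ASO in the fit without the expression filter, with the replicate block and without control ASO replicate 3. Against control ASO 3 were called in place of 4 with limma at either pseudocount, with the length offset and without the sex term. Against DPBS the count was 4, 5 with DESeq2, in a fit of those groups only or without control ASO replicate 3, and 2 without the sex term. In males against females 3 Gbp genes were called, 5 with DESeq2, 6 with limma at either pseudocount and 1 without treatment terms, and 2 to 4 with a liver left out. The interferon lists held 22 called genes, 10 without the sex term, 11 in a fit of those groups only, and 11 to 42 with a liver left out, 42 being without control ASO replicate 3, 13 without control ASO replicate 2 or Upf3b-ASO replicate 3, and 11 without Upf3b-ASO replicate 4. Over all genes 384 were higher and 526 lower against control ASO, 664 and 920 with DESeq2, 180 and 167 with limma on log2(TPM + 1), and 976 and 1192 without control ASO replicate 3. The causes were not tested. Replicate numbers did not pair the livers: residuals after group and sex correlated at -0.48 to 0.27 for same-numbered livers. With the replicate block the family sum differed by 1.15, 1.18 and 0.03 in the 3 group comparisons, 4 Gbp genes were called against each control and 0 between the controls, and the lists held 16. Control ASO against DPBS gave small log2 differences whose sign turned: Gbp2 from 0.02 to -0.0 without the filter, -0.04 and -0.02 with limma (1 and 0.1 added), -0.03 with a length offset and -0.04 without sex, and -0.2 to 0.35 with a liver left out; Gbp7 from -0.02 to -0.16 to 0.10 with a liver left out; Gbp9 from -0.05 to 0.0 with limma, 0.09 with the length offset and -0.18 to 0.06 with a liver left out; and Gbp10 from -0.48 to -0.77 to 0.02. None was called. Among sex calls of single genes, Gbp2, Gbp6 and Gbp10 gained a call in 10 fits and Gbp3 and Gbp9 lost theirs in 13. The share of Gbp10 in Gbp10-201, Upf3b-ASO minus control ASO, was 15.6 percentage points in deposited TPM.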
